A study of Mus musculus with 2 samples.

Results

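Fos, Fosb, Jun, Junb, Jund, Atf3, Ier2, Ier5, Hspa1a and Hspa1b are 10 of the 27998 genes counted in single immune cells from the islets of NOD mice, and each was found by its symbol in the deposited gene list. They encode subunits of the AP-1 transcription factor, short-lived products of immediate early genes, and the inducible Hsp70 chaperones. The cells were leukocytes positive for CD45.1 from islets of the pancreas, isolated by flow sorting, and the donors were female NOD/ShiLtJ mice, an inbred strain that develops autoimmune diabetes without intervention. Mice were 7 or 12 weeks old, no transgene or treatment was named for either age, and all cells of an age formed 1 droplet library (10x Genomics Chromium, 3' chemistry). The labels name neither the number of mice pooled nor the way the islets were dissociated. The comparison asked which of the 10 genes were lower at 12 weeks in every immune class and which differed from class to class.

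AP-1 is a dimer of Fos, Jun and ATF family proteins joined by a leucine zipper, and it is held ready in lymphocytes and myeloid cells as a relay from antigen receptors, cytokines and stress kinases to the genome. Its subunit genes are immediate early genes, transcribed within minutes of a stimulus without new protein synthesis, and their mRNAs decay fast. Hspa1a and Hspa1b encode nearly the same Hsp70 protein, which refolds damaged proteins, and are switched on by heat shock factor after heat, oxidative stress or the handling of cells.

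The 7 week library held 1109 kept cells with a median of 5650 unique molecular identifiers (UMIs) per cell, and the 12 week library 2804 cells with a median of 4966. Classes were gated on UMIs of genes outside the 10. A CD8 T cell had at least 2 UMIs of Cd8a and Cd8b1 and none of Cd4 (177 cells at 7 weeks, 485 at 12 weeks), and a CD4 T cell had at least 1 Cd4 UMI and none of Cd8a or Cd8b1 (375 and 884). B cells had at least 2 Cd79a UMIs (186 and 708), and the Ncr1 class, natural killer and innate lymphoid cells by its gate, at least 1 Ncr1 UMI (96 and 79). The macrophage class had at least 10 UMIs of C1qa, C1qb and C1qc together (11 and 34), the dendritic class at least 10 each of Cst3 and H2-Aa (92 and 241), and plasmacytoid dendritic cells (pDC) at least 3 of Siglech (30 and 55). Gates overlapped in 83 cells at 7 weeks and 176 at 12 weeks, and 10 of the 11 macrophage cells at 7 weeks and 28 of the 34 at 12 weeks also met the dendritic gate. In the macrophage class the summed level of 9 macrophage markers was 208 and 274 UMIs per 10000 at 7 and 12 weeks, and that of 10 dendritic markers 136 and 145, so the label rests on cells that carried both sets. In the other classes the markers of the labelled type were present at both ages, but markers of other types were present too. B cells held more UMIs of the dendritic list (38.8 and 54.2 per 10000) than of the B cell list (34.9 and 42.4). That dendritic list includes H2-Ab1, an MHC class II gene and so not a marker of dendritic cells alone. The Ncr1 class held T cell markers at 20.9 and 18.2 per 10000 beside 48.4 and 52.0 for its own list. In pDC the natural killer list stood at 43.6 and 59.5 and the dendritic list at 36.6 and 42.1, beside 74.3 and 106 for the pDC list. CD8 T cells held the natural killer list at 24.5 and 30.1 beside 35.1 and 39.1 for T cell markers. Transcripts of acinar cells, which the sort would remove, were higher at 12 weeks in every class, 2.42 against 0.401 UMIs per 10000 in CD8 T cells and 8.07 against 0.463 over all kept cells. Endocrine transcripts went from 0.731 to 87.1 per 10000 in the dendritic class and from 0.40 to 14.2 in CD4 T cells, and macrophage markers from 4.39 to 19.8 in CD4 T cells and from 31.95 to 58.9 in the dendritic class, but from 7.23 to 0.993 in the Ncr1 class. T cell markers went from 11.3 to 4.14 per 10000 in pDC, from 6.73 to 1.32 in the dendritic class and from 5.08 to 1.25 in the macrophage class. The part of these transcripts and markers in the results was not tested. Many cells were close to their gate, 133 of the 375 CD4 T cells at 7 weeks and 322 of the 884 at 12 weeks having 1 Cd4 UMI. With 1 library per age no test was possible, and the ranges given as 95% intervals cover the counting of UMIs or cells alone. They leave out how far mice and libraries vary. Those taken from UMIs also leave out how far the cells of a class vary, and are too narrow where few cells held most UMIs.

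Of the 10 genes, Ier5 and Hspa1b were lower at 12 weeks by at least 1.5-fold in 7 of 7 classes. Jund was past that fold in 7 of 7 too, although it had under 50 UMIs in the macrophage and pDC classes and was counted in 5. Atf3 was below its 7 week level in all 7 classes and past the fold in 6, of which 4 had enough UMIs to count. Its ratios also differed from class to class, from 0.023 in pDC to 0.682 in the Ncr1 class, and 11 of 15 class pairs differed beyond counting error. The other 6 genes were not below their 7 week level in every class, and their ratios differed between classes too. Fos, Fosb, Jun, Junb, Ier2 and Hspa1a were lower by at least 1.5-fold in the macrophage class, Fosb also in CD8 and CD4 T cells, and 3 of them, Fosb, Jun and Ier2, were higher by at least 1.5-fold in pDC. Being lower by 1.5-fold in all 7 classes was not particular to members. Btg1, AY036118, Rpl10-ps3 and Gm10076, described below, were so too, and the share of all genes that were was not counted.

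Levels are given as counts per 1000000 UMIs of the class (CPM), and a gene was counted as lower or higher when its 12 over 7 week ratio passed 1.5-fold and it had at least 50 UMIs over both libraries in that class. Among CD8 T cells 5 of 10 members were lower, against 6.49% of all 7087 genes with 50 UMIs, and in CD4 T cells the same 5 members of 10 (Fosb, Jund, Atf3, Ier5 and Hspa1b), against 7.73%. In B cells 3 of 9 were lower (8.43% of all genes), in the Ncr1 class 3 of 10 (8.46%), in each case Jund, Ier5 and Hspa1b. In the dendritic class 4 of 10 were lower (9.38%), namely Jund, Atf3, Ier5 and Hspa1b. All 9 counted members were lower in the macrophage class, where 11.7% of genes were, but 0 were counted as lower among the macrophage cells that met no other gate (1 and 4 cells). The minimum of 50 UMIs applied to these few cells too, so that 0 does not show that members were not lower in them. In pDC 2 of 8 were lower (8.21%) and 3 of 8 higher (12.7%). Across all kept cells 4 of 10 were lower, against 7.19%, and 0 higher, against 5.22%. The median log2 ratio of the counted members was -0.53 in CD8 T cells, -0.51 in CD4 T cells, -0.36 in B cells, 0.03 in the Ncr1 class, -1.41 in the macrophage class, -0.45 in the dendritic class and 0.32 in pDC, beside medians of all genes between 0.00 and 0.10. No member was higher by at least 1.5-fold in any class but pDC, beside 6.31% of genes higher in CD8 T cells, 5.27% in CD4 T cells, 7.11% in B cells, 7.21% in the Ncr1 class, 17.7% in the macrophage class and 8.92% in the dendritic class.

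**Figure D1:**
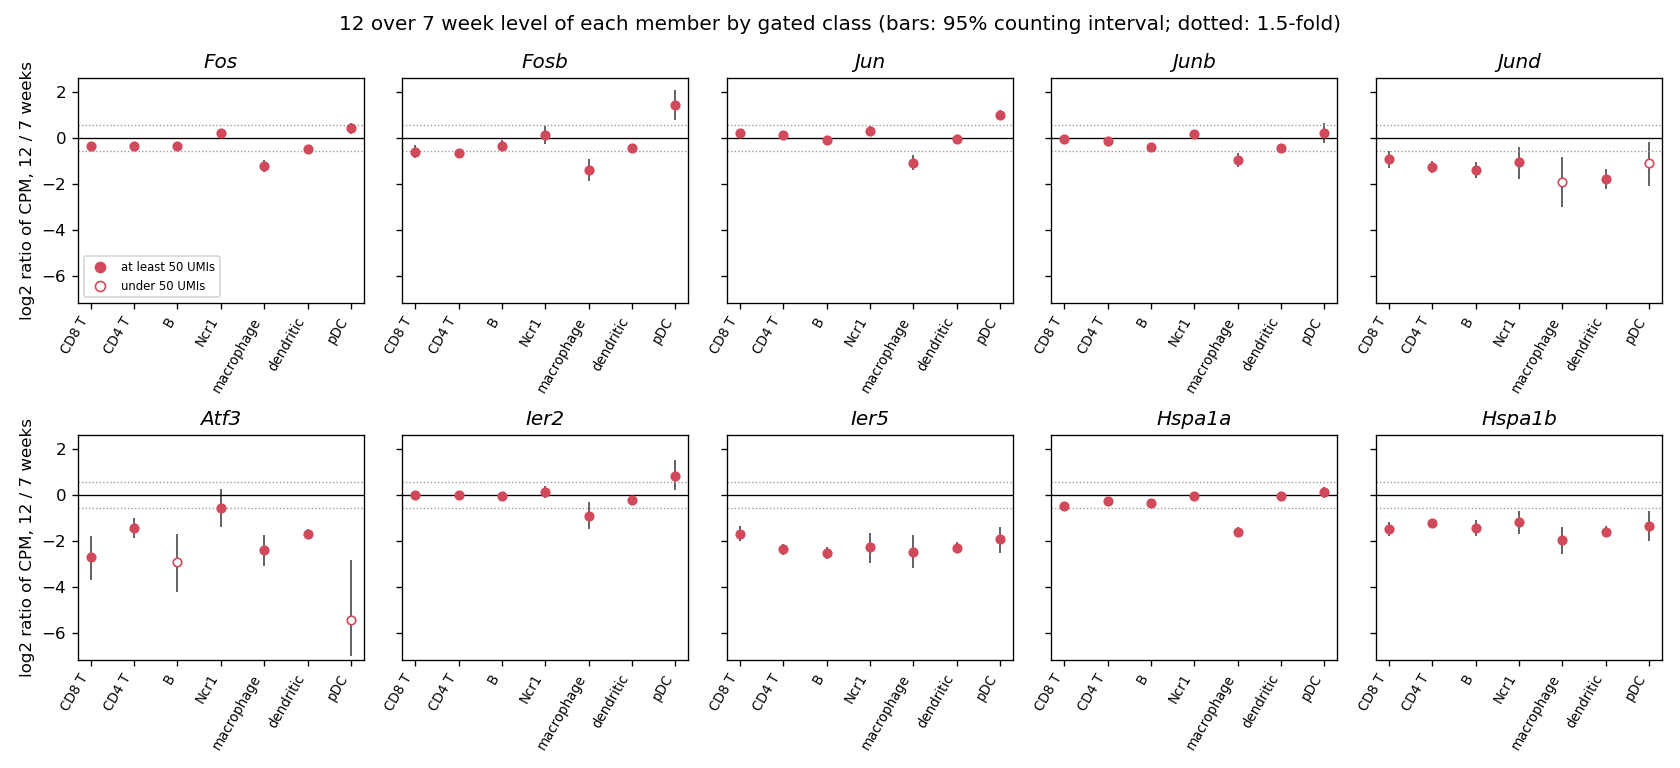
Log2 ratio of CPM, 12 over 7 weeks, for each gene (panels) in each gated class (x axis), with 95% counting intervals; dotted lines mark 1.5-fold and open points had under 50 UMIs. Ier5, Hspa1b and Jund lie under the lower dotted line in all 7 classes, while the pDC points of Fosb, Jun and Ier2 lie over the upper one.

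Fos, the founding AP-1 subunit and the classic marker of recent stimulation, had its highest 7 week level in the macrophage class at 1687 CPM and its lowest in CD8 T cells at 454. At 12 weeks pDC were highest at 906 CPM and CD8 T cells again lowest at 359. Fos was 0.789-fold its 7 week level in CD8 T cells (95% interval 0.721 to 0.865), 0.778 in CD4 T cells (0.732 to 0.828), 0.78 in B cells (0.721 to 0.843) and 0.719 in the dendritic class (0.673 to 0.769), none of them past 1.5-fold. These 4 ratios have overlapping intervals. In the Ncr1 class the ratio was 1.15 (0.995 to 1.32), in the macrophage class 0.428 (0.36 to 0.51) and in pDC 1.35 (1.14 to 1.59), so that pDC alone of the 7 had an interval above 1. The 7 week order put the macrophage class above the dendritic class at 989.7 CPM, both clear of the rest, while B, pDC, Ncr1 and CD4 T levels of 581 to 679 CPM overlapped neighbour by neighbour. After every cell was thinned to 2500 UMIs, Fos was found in 60.5% (7 weeks) and 51.1% (12 weeks) of CD8 T cells, and in 61.3% and 52.8% of CD4 T cells (86.4%, 73.6%, 82.7% and 70.6% before thinning). No class is known to lack these genes, so a share due to free RNA could not be read from the data.

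The 100 bases before the RefSeq start of Fos (GRCm38.p6, chr12:85473790-85473889, plus strand) are shown because they hold the TATA box and the partial cyclic AMP response element for which this promoter is known. Capitals mark TGACG and TATAAA.
Fos: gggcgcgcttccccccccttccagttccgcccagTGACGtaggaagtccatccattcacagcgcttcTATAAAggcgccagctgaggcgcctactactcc
TATAAA, searched on both strands, stood in the 300 base window (250 before to 50 after the start) of Fos and Junb, and in 13.6% of all 32851 RefSeq promoter windows. TGACG stood in the windows of Fos, Fosb, Junb and Atf3 and in 20.8% of all.

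Fosb, the Fos relative with a later and more lasting course after stimulation, was lower in both T cell classes. In CD8 T cells it went from 111 to 73.4 CPM (ratio 0.662, 0.546 to 0.804) and in CD4 T cells from 148 to 94.1 (ratio 0.636, 0.559 to 0.723). Both intervals reach across the 1.5-fold limit, so the side of the limit is within counting error. B cells (157 and 124 CPM, ratio 0.787) and the dendritic class (302 and 227 CPM, ratio 0.75) had intervals below 1 and ratios within the fold. The Ncr1 class stood at 179 and 195 CPM, with an interval of 0.827 to 1.42 around 1. In pDC the level was 80.7 CPM from 26 UMIs at 7 weeks and 217 from 98 UMIs at 12 weeks, a ratio of 2.69 (1.73 to 4.32). So pDC, lowest of the 7 classes at 7 weeks, stood beside the dendritic class at 12 weeks, and 5 cells of 30 held 69.2% of the 7 week UMIs.

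Jun, the subunit that pairs with Fos and is itself a target of JNK signalling, was not lower in either T cell class. Its level went from 371 to 432 CPM in CD8 T cells (ratio 1.16, 1.06 to 1.28), from 473 to 521 in CD4 T cells (1.1, 1.03 to 1.17) and from 529.9 to 655 in the Ncr1 class (1.24, 1.06 to 1.44), all within 1.5-fold. B cells (0.953, 0.874 to 1.04) and the dendritic class (0.958, 0.896 to 1.03) had intervals that include 1. In pDC Jun went from 819.8 to 1658 CPM, a ratio of 2.02 (1.76 to 2.34). At 12 weeks pDC were thereby clear of every other class, the next being the dendritic class at 847 CPM, whereas at 7 weeks pDC, dendritic and macrophage levels overlapped between 819.8 and 1039 CPM. A Jun UMI was found in 73.3% of thinned pDC at 7 weeks (54.1 to 87.7) and 89.1% at 12 weeks (77.8 to 95.9), and the 2 intervals overlap.

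Junb, a Jun relative that restrains Jun and supports T helper and natural killer programmes, was highest in the Ncr1 class at both ages (1290.1 and 1469 CPM) and lowest in pDC (220.5 and 255). Its ratio was 0.975 in CD8 T cells (0.909 to 1.05), 0.915 in CD4 T cells (0.877 to 0.955), 0.768 in B cells (0.718 to 0.823) and 0.747 in the dendritic class (0.697 to 0.802). The Ncr1 ratio was 1.14 (1.03 to 1.26) and that of pDC 1.16 (0.853 to 1.58). Outside the macrophage class every Junb ratio stayed within 1.5-fold, with CD4 T, B and dendritic cells below 1 and the Ncr1 class above 1 by their intervals.

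Jund, the Jun relative that most resting cells express and that often opposes growth, stood below its 7 week level in all 7 classes. It went from 71.5 to 37.5 CPM in CD8 T cells (ratio 0.525, 0.407 to 0.679), from 96.1 to 40.2 in CD4 T cells (0.418, 0.349 to 0.50) and from 105 to 39.7 in B cells (0.38, 0.302 to 0.479). The Ncr1 class went from 104 to 49.6 (0.477, 0.291 to 0.759) and the dendritic class from 82.9 to 24.1 (0.291, 0.215 to 0.39). In these 5 classes the level at 12 weeks lay below that at 7 weeks with no overlap of the counting intervals. The macrophage class had 16 UMIs at each age (ratio 0.266, 0.124 to 0.568) and pDC 26 and 17 UMIs (ratio 0.467, 0.238 to 0.893), too few to count. Neighbouring classes overlapped throughout the order of Jund levels at both ages. Of the 21 pairs of classes, 2 differed in their Jund log2 ratio beyond counting error, the dendritic class against CD8 T cells and against CD4 T cells. Those intervals treat classes as separate, although some cells were in 2 classes. Jund was found in 23.5% (7 weeks) and 9.62% (12 weeks) of thinned CD4 T cells, and in 20.4% and 10.5% of B cells (45.3%, 21.4%, 43.5% and 21.6% before thinning).

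**Figure D2:**
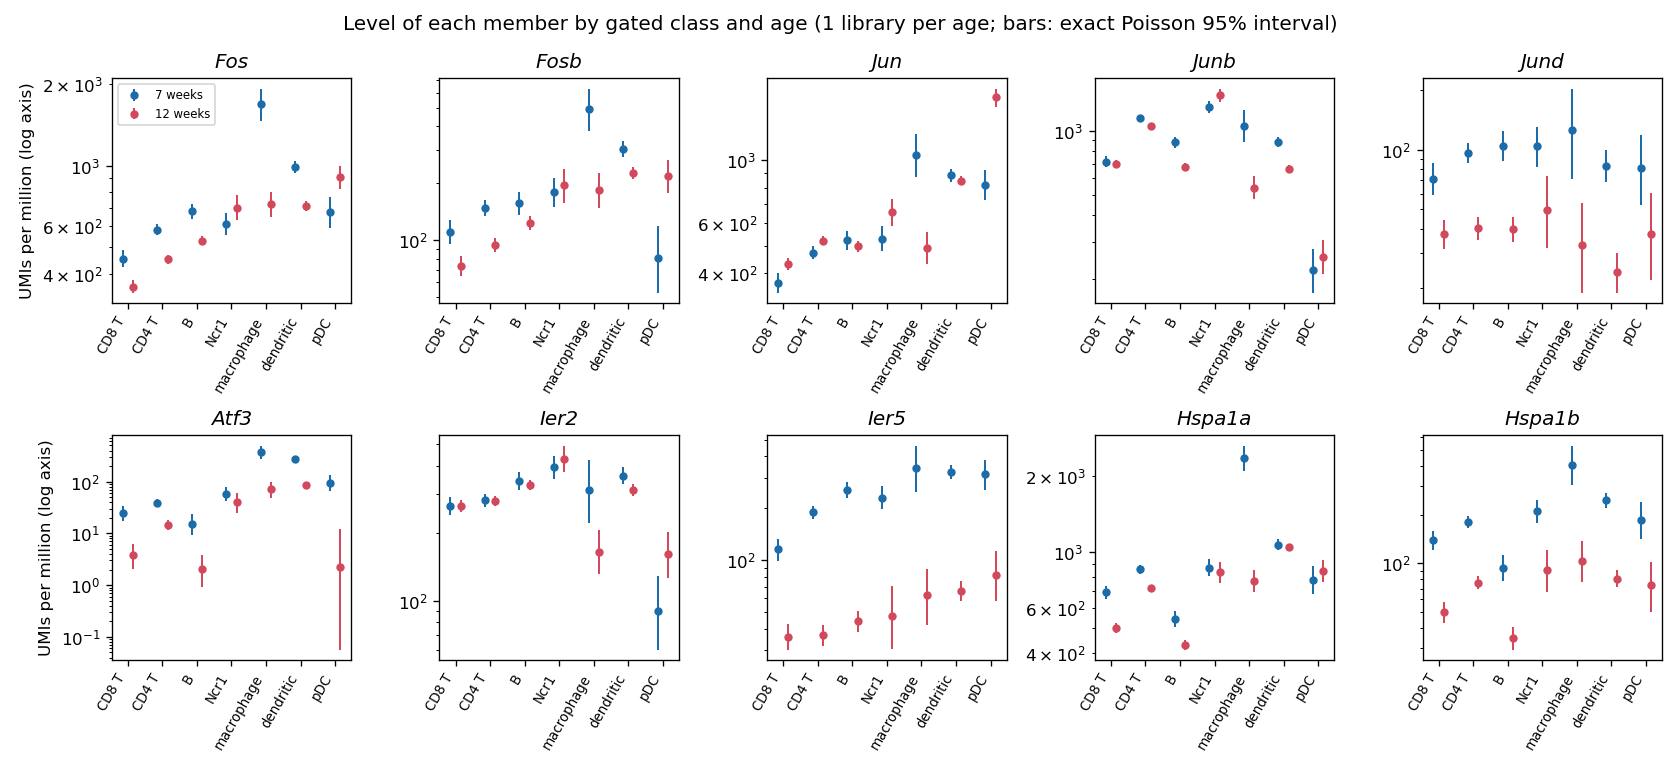
CPM of each gene (panels, log axes with their own ranges) in each gated class at 7 weeks (blue) and 12 weeks (red), with exact Poisson 95% intervals. For Ier5, Hspa1b and Jund the red points lie below the blue in all 7 classes, and for Fosb, Jun and Ier2 the red pDC point lies above the blue.

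Atf3, a stress-induced member of the ATF family that represses cytokine genes in myeloid cells, was highest in the myeloid classes at 7 weeks. It stood at 375 CPM in the macrophage class, 278 in the dendritic class and 96.3 in pDC, beside 58.3 in the Ncr1 class, 38.7 in CD4 T cells, 24.4 in CD8 T cells and 15.3 in B cells. The macrophage and dendritic levels overlapped and both were clear of pDC. At 12 weeks the levels were 70.6, 85, 2.22, 39.7, 14.3, 3.75 and 2.03 CPM in the same order of classes. The dendritic class, with 395 and 275 UMIs, gave the most closely set ratio, 0.306 (0.261 to 0.358), and the macrophage class gave 0.188 (0.118 to 0.298), CD4 T cells 0.371 (0.275 to 0.498) and CD8 T cells 0.154 (0.077 to 0.289). In the Ncr1 class the ratio of 0.682 had an interval of 0.379 to 1.19 that includes 1, and 5 cells held 81% of the UMIs at 7 weeks and 95% at 12 weeks. B cells had 20 and 9 UMIs (0.133, 0.0534 to 0.306), and pDC 31 UMIs at 7 weeks and 1 at 12 weeks (0.023, 0.000565 to 0.138). The 7 week T cell UMIs were held by few cells, 5 of the 177 CD8 T cells carrying 66.7% and 5 of the 375 CD4 T cells 61.1%. In thinned cells Atf3 was found in 39.1% of dendritic cells at 7 weeks (29.1 to 49.9) and 16.6% at 12 weeks (12.1 to 21.9), against 67.4% and 33.6% before thinning. Of 30 pDC it was found in 5 at 7 weeks and in 0 of 55 at 12 weeks, where the two-sided exact interval reaches 6.49% and a limit of 3 counts would be 5.45% of cells with a UMI.

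Ier2, a nuclear immediate early protein, gave ratios near 1 in CD8 T, CD4 T and B cells. CD8 T cells stood at 266 and 266 CPM (ratio 1.0, 0.893 to 1.12), CD4 T cells at 281 and 279 (0.992, 0.911 to 1.08) and B cells at 343 and 329 (0.958, 0.861 to 1.07). Each of these intervals lies within 0.861 to 1.12, so a change of 1.5-fold is outside counting error there. The Ncr1 class had the highest level at both ages (395 and 433 CPM), and the dendritic class went from 362 to 312, a ratio of 0.861 (0.774 to 0.959). In pDC, lowest at 7 weeks, Ier2 went from 90.1 CPM (29 UMIs) to 162 (73 UMIs), a ratio of 1.8 (1.15 to 2.87) whose interval reaches down within the fold.

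Ier5, an immediate early gene of the same family whose product acts on heat shock factor, had the lowest ratio over all kept cells among the 10 genes, 0.208 (0.191 to 0.226). It went from 115 to 35.9 CPM in CD8 T cells (0.311, 0.247 to 0.391), from 189 to 36.6 in CD4 T cells (0.193, 0.164 to 0.227) and from 256 to 44.2 in B cells (0.173, 0.144 to 0.206). All 3 classes had 12 week levels far below those at 7 weeks. The Ncr1 class went from 230.3 to 47.6 CPM (0.207, 0.129 to 0.319), the macrophage class from 344 to 62.3 (0.181, 0.11 to 0.295), the dendritic class from 325 to 66.4 (0.205, 0.173 to 0.241) and pDC from 314 to 82 (0.261, 0.174 to 0.385). No class had overlapping intervals between the ages, and the highest 12 week level, in pDC, was below the lowest at 7 weeks, in CD8 T cells. At 7 weeks the order ran from macrophage, dendritic and pDC through B and Ncr1 cells to CD4 and CD8 T cells, with every neighbour overlapping except CD4 against CD8 T cells. CD8 T cells also had the ratio nearest to 1, and 4 of the 21 pairs of classes differed beyond counting error, each of them CD8 T cells against another class (CD4 T, B, macrophage and dendritic). The UMIs were spread over many cells at both ages, since 5 cells held 9.75% of the CD4 T class's Ier5 UMIs at 7 weeks and 8.21% at 12 weeks. In thinned cells Ier5 was found in 52.7% of B cells at 7 weeks (45.3 to 60) and 10.3% at 12 weeks (8.17 to 12.8), in 35.2% and 7.92% of CD4 T cells and in 25.4% and 10.3% of CD8 T cells. Before thinning those shares were 72%, 21.6%, 66.4%, 18.4%, 52.5% and 21.2%.

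The 120 bases before the RefSeq start of Ier5 (GRCm38.p6, chr1:155099637-155099756, minus strand, written 5′ to 3′ along the gene) are shown because they carry a repeated CCAAT box. Capitals mark ATTGG, which is CCAAT on the other strand.
Ier5: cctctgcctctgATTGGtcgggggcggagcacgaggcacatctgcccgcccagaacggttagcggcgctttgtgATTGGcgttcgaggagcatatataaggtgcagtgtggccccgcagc
CCAAT stood on either strand in the windows of Jun, Junb, Atf3, Ier5, Hspa1a and Hspa1b, 6 of the 9 members with a promoter entry, and in 37.4% of all windows. Ier2 had no entry.

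**Figure D3:**
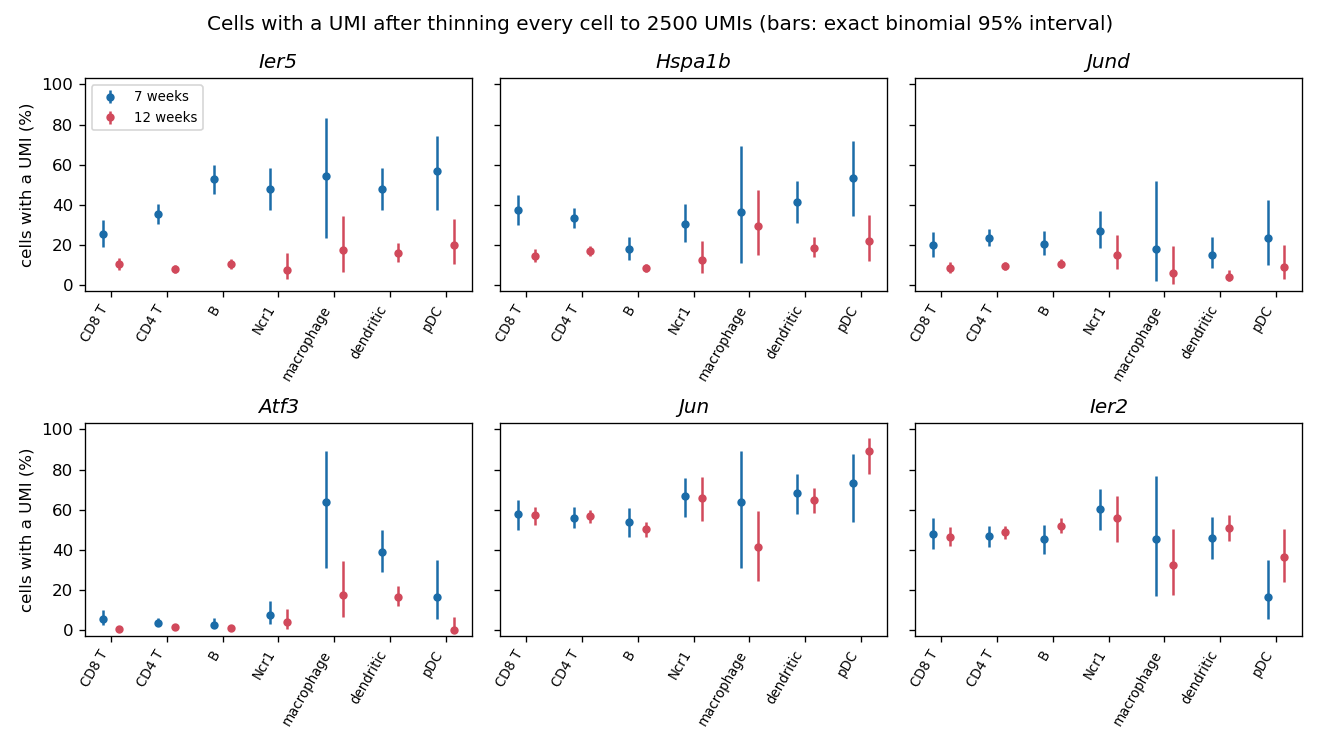
Percentage of cells of each gated class (x axis) with at least 1 UMI of 6 of the genes (panels) at 7 weeks (blue) and 12 weeks (red), after each cell was thinned to 2500 UMIs, with exact binomial 95% intervals. Ier5 was found in 52.7% of B cells at 7 weeks and 10.3% at 12 weeks, whereas the Ier2 shares of both ages overlap in all classes.

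Hspa1a and Hspa1b lie side by side on chromosome 17 and encode the stress-inducible Hsp70. Their coding sequences in the GENCODE transcripts are identical over 99.4% of the bases of the longer one, and their 3' untranslated regions over 51.1%, counted alike. The untranslated regions are 810 and 643 bases long, and 414 of their 578 aligned bases are identical. Reads from the shared parts could be split between the genes or lost, and levels of either one are uncertain to that extent. The promoters are shown because the copies differ at 3 of the 250 bases before the start, which capitals mark, while the genes' UMIs went apart (RefSeq, GRCm38.p6, minus strand, written along the gene, Hspa1a at chr17:34972157-34972406 and Hspa1b at chr17:34959239-34959488).
Hspa1a: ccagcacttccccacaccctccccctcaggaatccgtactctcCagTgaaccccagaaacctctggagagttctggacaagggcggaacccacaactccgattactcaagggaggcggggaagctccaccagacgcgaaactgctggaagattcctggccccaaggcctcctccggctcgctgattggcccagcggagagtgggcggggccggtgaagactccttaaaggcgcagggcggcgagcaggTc
Hspa1b: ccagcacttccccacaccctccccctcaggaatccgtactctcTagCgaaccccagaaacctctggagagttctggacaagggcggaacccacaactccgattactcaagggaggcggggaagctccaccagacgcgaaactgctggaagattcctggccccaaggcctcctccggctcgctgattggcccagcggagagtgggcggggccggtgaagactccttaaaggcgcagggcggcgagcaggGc
GAANNTTC, the core of a heat shock element, stood in the 300 base windows of Hspa1a, Hspa1b and Jun and in 7.86% of all windows.

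Hspa1a was highest in the macrophage class at 7 weeks (2359 CPM) and in the dendritic class at 12 weeks (1046 CPM), and lowest in B cells at both ages (546 and 430.4 CPM). Its ratio was 0.725 in CD8 T cells (0.673 to 0.782), 0.841 in CD4 T cells (0.80 to 0.884) and 0.789 in B cells (0.724 to 0.861). It was 0.961 in the Ncr1 class (0.847 to 1.09), 0.976 in the dendritic class (0.918 to 1.04) and 1.08 in pDC (0.921 to 1.28), 3 intervals that include 1. Only the macrophage class, at 0.326 (0.28 to 0.381), passed the fold.

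Hspa1b was lower in every class. It went from 139 to 49.9 CPM in CD8 T cells (0.358, 0.293 to 0.437), from 179.9 to 76.1 in CD4 T cells (0.423, 0.371 to 0.481), from 93.9 to 34.5 in B cells (0.368, 0.288 to 0.47) and from 209 to 91.3 in the Ncr1 class (0.436, 0.306 to 0.61). The macrophage class went from 406 to 104 CPM (0.256, 0.17 to 0.384), the dendritic class from 245 to 80.6 (0.33, 0.28 to 0.388) and pDC from 186 to 73.1 (0.393, 0.249 to 0.61). In each class the 12 week interval lay below the 7 week interval. B cells were lowest at both ages and clear of the class above them, while at 12 weeks the macrophage, Ncr1, dendritic, CD4 T and pDC levels overlapped. For Hspa1b 3 of 21 class pairs differed in log2 ratio beyond counting error, for Hspa1a 16.

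Hspa1b made up 16.7% of the UMIs of the pair in 7 week CD8 T cells and 9.02% in 12 week ones, 17.3% and 9.54% in CD4 T cells, and 14.7% and 7.43% in B cells. The Ncr1 class went from 19.4% to 9.85%, the dendritic class from 18.6% to 7.16% and pDC from 19.3% to 7.97%, in each case without overlap of the exact binomial intervals. In the macrophage class the shares of 14.7% and 11.9% had overlapping intervals (11.2 to 18.8 and 8.94 to 15.4). Within an age the classes were close, from 14.7% to 19.4% at 7 weeks and from 7.16% to 11.9% at 12 weeks, and the share over all kept cells went from 17.1% (16.4 to 17.9) to 8.64% (8.18 to 9.12). Because this share is taken within the pair, the total UMIs of a cell do not enter it.

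**Figure D4:**
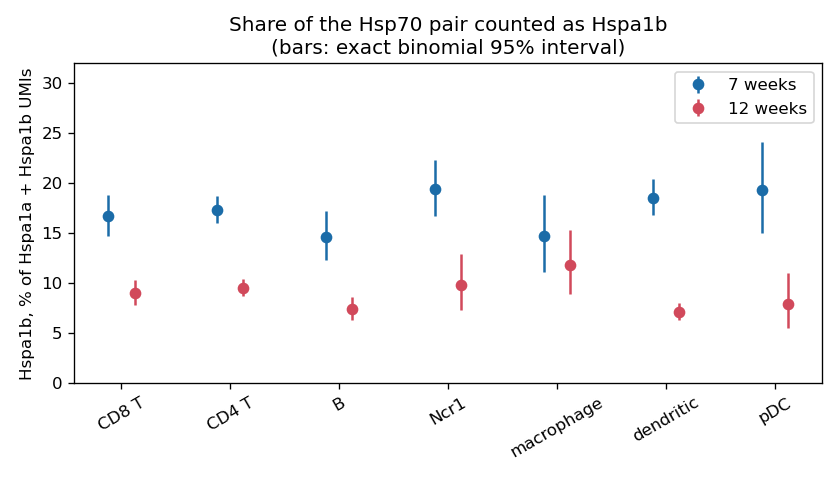
Percentage of Hspa1a plus Hspa1b UMIs assigned to Hspa1b (y axis) in each gated class (x axis) at 7 weeks (blue) and 12 weeks (red), with exact binomial 95% intervals. The 7 week shares lie between 14.7% and 19.4% and the 12 week shares between 7.16% and 11.9%, and the intervals of the ages overlap in the macrophage class.

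The macrophage class had the lowest ratio of the 7 classes and pDC the highest for Fos, Fosb, Jun, Junb, Ier2 and Hspa1a. In the macrophage class the ratios were 0.428 for Fos, 0.375 for Fosb (0.269 to 0.527), 0.474 for Jun (0.381 to 0.59), 0.512 for Junb (0.414 to 0.635) and 0.532 for Ier2 (0.359 to 0.798). These rest on 11 cells at 7 weeks, of which 5 held 76.4% of the Fos UMIs, 88.9% of Fosb, 77.4% of Jun and 88.4% of Hspa1a. Only 1 and 4 macrophage cells met no other gate, and among those the Fos, Fosb, Jun and Junb ratios were above 1, at 2.06, 1.83, 1.03 and 1.28. For Fos 14 of 21 class pairs differed in log2 ratio beyond counting error, for Fosb 16, for Jun 17, for Junb 16 and for Ier2 13, against 2 for Jund, 4 for Ier5 and 3 for Hspa1b. Every Fos pair that differed included the Ncr1, macrophage or pDC class. So did those of Fosb and Ier2, except CD4 T against B cells for Fosb and CD4 T cells against the dendritic class for Ier2. For Jun and Junb both T cell classes also differed from B cells and from the dendritic class. Atf3 had enough UMIs in 15 pairs, of which 11 differed. How many pairs pass also depends on a gene's UMIs, and Jund, Ier5 and Hspa1b had fewer UMIs than Fos, Jun, Junb, Ier2 and Hspa1a. Of the pDC, 15 of 30 at 7 weeks and 33 of 55 at 12 weeks met another gate, 7 and 17 of them the dendritic gate and 3 and 15 the CD8 T gate. Among the 15 and 22 pDC that met no other gate the ratios were 3.3 for Fosb, 2.32 for Jun and 2.51 for Ier2, and Fos, within the fold in the whole class, was at 1.76.

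Counted per cell, fewer of the 10 genes had a UMI on average at 12 weeks. This mean is the sum of the shares of cells with each gene, so it does not show whether the genes went together. In thinned cells the mean number of members with a UMI was 4.05 at 7 weeks and 3.21 at 12 weeks in CD8 T cells, 4.27 and 3.42 in CD4 T cells, 3.99 and 3.08 in B cells and 4.83 and 3.95 in the Ncr1 class. It was 5.64 and 3.68 in the macrophage class, 5.16 and 3.95 in the dendritic class and 4.53 and 3.75 in pDC. Cells with at least 6 of the 10 made up 25.9% (7 weeks) and 8.71% (12 weeks) of CD4 T cells, 45.7% and 20.7% of the dendritic class, and 28.5% and 9.74% of all kept cells. Cells with none of the 10 made up 2.07% and 4.6% of all kept cells.

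Within CD8 T cells, a division by Ccl5, a chemokine of antigen-experienced cells, was made after the values had been seen. Ier5 had ratios of 0.318 in cells with under 3 Ccl5 UMIs (73 cells at 7 weeks, 224 at 12 weeks) and 0.297 in cells with 3 or more (104 and 261), and Jund of 0.459 and 0.562, with overlapping intervals in each case. Jun was 1.43 (1.24 to 1.66) in the cells with little Ccl5 and 0.912 (0.802 to 1.04) in the others. Hspa1b was 0.50 (0.376 to 0.667) and 0.237 (0.175 to 0.319), Hspa1a 0.827 (0.74 to 0.925) and 0.608 (0.549 to 0.675), and Fos 0.667 (0.584 to 0.762) and 0.875 (0.771 to 0.995). For these 4 genes the intervals of the subsets do not overlap, and the Hsp70 ratios were lower in the cells with more Ccl5 while the Fos ratio was lower in those with less. Cells that met no gate (235 and 515) had ratios of 0.490 for Fos, 0.477 for Fosb, 0.234 for Ier5 and 0.287 for Hspa1b.

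The wider pathways were followed in lists of other genes. Of the other AP-1 and leucine zipper genes with 50 UMIs over all kept cells, 3 of 19 were lower and 1 higher (median log2 ratio -0.14, beside 0.02 for all genes tested, of which 7.19% were lower and 5.22% higher). Maff, a small Maf protein that lacks an activation domain, had a ratio of 0.308, and Fosl2, a Fos relative, of 0.619, while Atf4, the effector of the integrated stress response, stood at 0.907 and Batf, the AP-1 factor of lymphocyte differentiation, at 0.966. Of other immediate early genes 10 of 31 were lower and 1 higher over all kept cells (median -0.39). In CD4 T cells 13 of 29 were lower (7.73% of all genes) and 0 higher, in B cells 9 of 27 (8.43%) and 0 higher, and in the macrophage class 10 of 16 (11.7%) and 0 higher. The dendritic class had 16 of 28 lower (9.38%) and 1 higher, and CD8 T cells 4 of 27 lower (6.49%) and 1 higher. In the Ncr1 class 4 of 22 were lower (8.46%) and 3 higher (7.21%), and in pDC 4 of 13 lower (8.21%) and 3 higher (12.7%), so in these classes the list went both ways. Btg1, an antiproliferative gene, was lower in every class by 1.5-fold or more, with ratios from 0.355 in the macrophage class to 0.583 in the Ncr1 class, and Rhob, a small GTPase of the endosome, had 0.336 over all kept cells. Nfkbia, which holds NF-kB in the cytoplasm, stood at 0.865, and Cyr61, a matrix protein gene, at 8.72 (2.84 to 43.5). Cyr61 had 3 UMIs at 7 weeks, of which 2 were in CD4 T cells. It had 58 at 12 weeks, of which 0 were in any of the 7 classes, so its ratio sets unlike cells against each other.

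Upstream of AP-1, 4 of 24 MAP kinase pathway genes were lower over all kept cells and 0 higher (median -0.21), beside 7.19% and 5.22% of all genes. Mapk14 (p38 alpha), a stress-activated kinase, had a ratio of 0.506, while the MAP kinase kinases Map2k1 and Map2k2 stood at 1.2 and 1.1. Of the dual specificity phosphatases, which switch MAP kinases off and are themselves induced by them, 2 of 10 were lower, again beside 7.19% of all genes (median -0.32), namely Dusp2 at 0.632 and Dusp5 at 0.502, with Dusp1 at 0.710. Of other heat shock and chaperone genes 7 of 29 were lower, beside the same 7.19%, and 0 higher (median -0.18). Bag1 and Bag3, cochaperones that release substrate from Hsp70, had 0.254 and 0.392, whereas the constitutive Hspa8 and Hsp90ab1 stood at 0.858 and 0.907. Outside the macrophage class, where it was 0.475, Hspa8 lay between 0.779 and 0.887 in every class, beside Hspa1b ratios of 0.330 to 0.436 in those classes.

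The genes whose level over the 14 class and age values (log2 of CPM plus 10) was most like that of a member were sought among 5453 genes. Fos was most like Mbnl2 (Pearson r 0.96), Fosb like Rgs2 (0.91), Jun like Neat1 (0.95), Junb like Il2rg (0.90), Atf3 like Mcl1 (0.95), Ier2 like Gtf3c1 (0.92) and Hspa1a like Pxn (0.93). Jund was most like AY036118 (0.93), Rpl10-ps3 (0.92) and Gm10076 (0.91), and Ier5 like Vapb (0.95), Rpl10-ps3 (0.95) and AY036118 (0.95), while Hspa1b was most like Vapb (0.92), Wdr26 (0.92) and Ctdnep1 (0.91). Values of the same age share a library and its depth. AY036118, a noncoding gene, had ratios from 0.337 to 0.579 over the 7 classes, Rpl10-ps3, whose symbol names a ribosomal protein pseudogene and which GENCODE lists as protein-coding, from 0.378 to 0.455, and the noncoding Gm10076 from 0.366 to 0.410. Among the members themselves, Jund and Ier5 had an r of 0.87, Ier5 and Hspa1b 0.85, Fos and Fosb 0.90 and Junb and Ier2 0.89, against 0.04 for Atf3 and Ier2.

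Gene structure was looked at after the values were known, in the GENCODE M21 annotation. Of 48 processed pseudogenes with 50 UMIs over all kept cells, 79.2% were at least 1.5-fold lower at 12 weeks and 0 higher, with a median log2 ratio of -1.10, and in single classes 73.3% to 92.3% were lower. Of 242 protein-coding genes with 1 exon, members left out, 28.1% were lower, against 5.86% of those with 2 or more exons. Of the 27 genes with 1 exon and a transcript GC content of at least 60%, members left out, 55.6% were lower. Jun, Junb, Jund, Ier2, Ier5, Hspa1a and Hspa1b, 7 of the 10 members, have 1 exon, and Fos, Fosb and Atf3 have 4. GC content was 67.1% in Jund, 62.6% in Junb, 60.9% in Ier2, 58.9% in Hspa1a and 58.1% in Hspa1b, each in the top 10% of genes, but 52.3% in Ier5. Junb and Ier2, with 1 exon and over 60% GC, were within 1.5-fold in 6 and 5 of 7 classes, and Atf3, with 4 exons, was lower in 4. The part of gene structure in the lower levels of Ier5, Jund and Hspa1b was not tested, and with 1 library per age the age of the mice and the making of the library cannot be told apart.

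**Figure D5:**
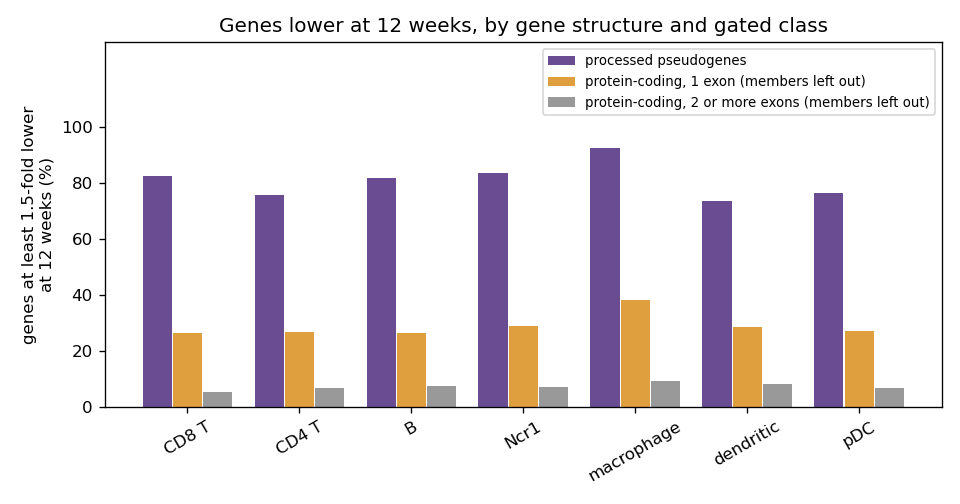
Percentage of genes (y axis) at least 1.5-fold lower at 12 weeks in each gated class (x axis), among processed pseudogenes (purple), protein-coding genes with 1 exon (orange) and with 2 or more exons (grey), the 10 members left out. Pseudogenes lie between 73.3% and 92.3%, and genes with 2 or more exons between 5.51% and 9.41%.

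In the same annotation (GRCm38) the genes lie at chr12:85473890-85477273 (Fos, ENSMUSG00000021250, plus strand), chr7:19302696-19310051 (Fosb, ENSMUSG00000003545, minus), chr4:95049034-95052222 (Jun, ENSMUSG00000052684, minus), chr8:84974484-84978718 (Junb, ENSMUSG00000052837, minus) and chr8:70698949-70700616 (Jund, ENSMUSG00000071076, plus). Atf3 lies at chr1:191170296-191218039 (ENSMUSG00000026628, minus), Ier2 at chr8:84661331-84662852 (ENSMUSG00000053560, minus), Ier5 at chr1:155096361-155099636 (ENSMUSG00000056708, minus), Hspa1a at chr17:34969190-34972156 (ENSMUSG00000091971, minus) and Hspa1b at chr17:34956436-34959238 (ENSMUSG00000090877, minus). Further motifs of these pathways, the full cyclic AMP response element TGACGTCA and the AP-1 site TGANTCA, were in no member's window, and in 1.79% and 7.81% of all windows. The CArG box of serum response factor was in no member's window and in 1.63% of all. Bases outside the windows were not searched, so these counts do not show that a member lacks such sites further from its start.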

How the data were processed

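Whole-number counts of UMIs per gene and barcode were deposited by the authors, not normalized, for 1 library per age. Per the submitters' processing notes, Cell Ranger 1.3.1 and the mm10 build were used, and no annotation is named for the counting. Library totals were 8701184 UMIs over 1113 barcodes at 7 weeks and 19288252 over 2812 at 12 weeks, and 2 barcodes occurred in both libraries. Barcodes with at least 200 genes and at most 10% mitochondrial UMIs were kept, which removed 4 and 8. No doublet caller was applied to the values reported. Counts were summed per library and gated class and divided by the class total. Ratios carry exact conditional binomial intervals, levels exact Poisson intervals and shares Clopper-Pearson intervals, all at 95%. Differences between classes use Poisson variances where each sum had at least 5 UMIs. A member was called at 1.5-fold with at least 50 UMIs over both libraries. Shares were taken after thinning each cell to 2500 UMIs, which left out no cell.

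The genes named are the 10 members, from each gene list the 2 with the most UMIs and the 2 whose ratio was furthest from 1 by its nearer bound, and for each member the 3 genes with the highest correlation among genes with at least 500 UMIs. The text gives a part of them, and 1 gene that the rule names is not reported here. The members and the lists were chosen with earlier results of these data known. The splits by gene structure and by Ccl5 were chosen after the values were seen. Map2k7 was left out of its list because its symbol names 2 rows. Promoters are from RefSeq (GRCm38.p6), matched by symbol for 9 of 10 members. The calculations were tested on simulated data. Python 3.11.15, numpy 2.4.6, scipy 1.17.1, pandas 2.3.3, scikit-learn 1.9.0 and matplotlib 3.10.9 were used.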

Additional observations from a re-analysis of the deposited data

Results flagged for a closer look

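In 3 genes a class moved past 1.5-fold upward while another moved past it downward between the ages, and the difference between the classes was not tested, because each age is 1 library. Fosb was 2.69-fold its 7 week level in pDC, against 0.662 in CD8 T cells, 0.636 in CD4 T cells and 0.375 in the macrophage class. Jun was 2.02-fold in pDC and 0.474 in the macrophage class. Ier2 was 1.80-fold in pDC and 0.532 in the macrophage class.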

How the results depend on the processing

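The numbers of members counted as lower or higher were recomputed under 11 alternatives, and 143 of 154 values stayed within 1.5 times the value reported. Many of the 143 were counts of members higher, which were 0 throughout in every class but pDC. The values that moved were mostly counts of members lower. With gate minimums doubled, 3 members were lower in CD8 T cells, and with a fold of 2 also 3. With cells of exactly 1 class, 3 were lower in CD4 T cells, 0 in the macrophage class and 1 in pDC. The macrophage ratios of Fos, Fosb, Jun and Junb turned to 2.06, 1.83, 1.03 and 1.28 there (1 and 4 cells). Over the classes a further 14 of 67 ratios moved by more than their interval. Turning was scored only for members counted as lower or higher. With cells thinned before gating, 3 were lower in CD4 T cells, 1 in the Ncr1 class, 3 in the macrophage class and 0 in pDC, and 1 was higher in pDC; thinning leaves fewer UMIs to reach the minimum of 50, and 31 of 70 ratios also moved by more than their interval. With a minimum of 10 UMIs, 4 were lower in pDC. Over the ratios under all alternatives, Ier5 was past 1.5-fold lower in 63 of 63, Hspa1b in 62 of 62, Jund in 62 of 62 and Atf3 in 58 of 63. Leaving out the tenth of cells richest in the members, an alternative chosen after seeing the data, gave an Atf3 ratio of 1.53 in the Ncr1 class. Shares before thinning differed by more than the interval in 127 of 140 values. Removing 10 and 63 barcodes with the highest doublet scores moved no ratio beyond its counting interval. No paired analysis was possible because each age has 1 library. The macrophage class (11 and 34 cells) and pDC (30 and 55) are limited most by cell number.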
